A study of Homo sapiens with 4 samples.

Results

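The genes described here are 35 genes of ribosome biogenesis and of RNA polymerase I (Pol I), taken by symbol from a table of 19775 genes, in which all 35 were found. The series profiled polyadenylated RNA of H1, a line of human embryonic stem cells, and asks how the kinase ERK5 acts on the balance of growth signals in pluripotent cells. The treated group consisted of wild-type H1 cells given 1 µM XMD892, a kinase inhibitor developed against ERK5, for 12 h in E8, a defined medium with insulin, FGF2 and TGFβ. It had 2 libraries, called replicate 2 and replicate 1 here, and nothing in the labels says that they came from separate cultures. The table has 1 more column named for XMD at 12 h, which matched none of the samples at hand by name and was not used here. The labels also give 2 samples of wild-type H1 cells in E8 alone for 12 h; the untreated columns of the table name another culture time, so these samples were not analysed here. What follows therefore gives levels in treated cells and the gap between the treated libraries, not an effect of XMD892.

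Ribosomes are assembled in the nucleolus. Pol I transcribes a long precursor, box C/D and box H/ACA small nucleolar ribonucleoproteins (snoRNPs) modify it, and a large set of assembly factors folds and cuts it into the RNAs of the small and the large subunit. Pluripotent cells divide fast and are known for large nucleoli and a high demand for new ribosomes, and the factor MYC, which binds the E-box CACGTG, is known to activate many of these genes. The members fall into 6 roles: 3 box C/D proteins, 3 box H/ACA proteins, 5 nucleolar proteins with several functions, 10 factors of the small subunit, 9 of the large subunit and 5 Pol I genes.

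The reads on listed genes came to 20217648 in replicate 2 and 18528689 in replicate 1. The identity of the cells was checked first, and all 10 pluripotency markers, POU5F1, SOX2 and NANOG among them, reached 1 RPKM (reads per kilobase of exon, scaled to the depth of the library) in both libraries. Their summed normalized counts were 209224 in replicate 2 and 179910 in replicate 1, an order set by POU5F1 with 88345 in replicate 2 and 42265 in replicate 1. Without POU5F1 the other 9 summed to 120879 in replicate 2 and 137644 in replicate 1. DNMT3B had 24165 normalized counts in replicate 2 and 39265 in replicate 1, and SALL4 had 1761 and 3196. DPPA4 had 23943 in replicate 2 and 17726 in replicate 1. Of the 10 markers 5 were higher in replicate 2, with SOX2, NANOG and L1TD1 also among them, and 5 in replicate 1. Of 10 mesenchymal and fibroblast markers 7 were listed, COL3A1, POSTN and LUM not among them, with sums of 10324 normalized counts in replicate 2 and 13560 in replicate 1. Single markers differed far more than the sum. TAGLN had 446 normalized counts in replicate 2 and 4847 in replicate 1, COL1A1 had 207 and 1534, and VIM had 568 and 1813. THY1 went the other way, with 8110 normalized counts in replicate 2 and 3970 in replicate 1, and without it the other 6 listed markers summed to 2214 in replicate 2 and 9590 in replicate 1. ACTA2, a defining marker of contractile cells, was near 0 with 8 reads in replicate 2 and 4 in replicate 1. As a sign of RNA quality, the 13 genes of the mitochondrial genome summed to 1139333 normalized counts in replicate 2 and 957409 in replicate 1. The genes were split, with 7 higher in replicate 2, MT-CO1, MT-CO2 and MT-CO3 among them, and 6 higher in replicate 1. In bulk RNA, fewer cells of a type and less RNA per cell cannot be told apart.

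The promoters of the members were examined for a feature that the choice of genes did not use. RefSeq windows from 250 bases before to 50 bases after the start site (GRCh38.p14) were at hand for 29 members. An E-box, written CACGTG and the same on both strands, lay in the windows of 12 of these 29 genes (41.4%), against 12.5% of 10939 genes that had a window and averaged 10 or more normalized counts. All 12 E-boxes began between 64 bases before and 36 bases after the start site, and none lay in the stretch that starts 250 bases and ends more than 100 bases before it, where 5.35% of the 10939 genes had an E-box. In the stretch from 100 bases before to 50 after, the share was 41.4% of members against 7.7% of those genes. All members averaged above 500 normalized counts, and the share with an E-box among genes of that abundance was not computed. The 12 matches are printed to show the shared letters and their flanks; capitals mark the E-box, and each line reads 5′ to 3′ on the strand of the gene.
LYAR: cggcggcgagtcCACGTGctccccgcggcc
DDX21: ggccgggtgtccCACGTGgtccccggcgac
UTP20: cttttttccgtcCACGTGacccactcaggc
RRP9: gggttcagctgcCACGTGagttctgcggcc
WDR43: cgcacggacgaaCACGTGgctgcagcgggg
GNL3: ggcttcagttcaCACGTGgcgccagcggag
FBL: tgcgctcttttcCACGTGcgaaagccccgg
PES1: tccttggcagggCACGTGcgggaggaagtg
NOP14: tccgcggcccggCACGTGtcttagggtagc
BYSL: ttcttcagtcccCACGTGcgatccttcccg
GAR1: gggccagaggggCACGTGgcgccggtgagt
NOP2: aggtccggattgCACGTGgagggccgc

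The lines stand in order of position. In LYAR the E-box began 64 bases before the start site (chr4:4290068-4290097 in GRCh38.p14 for the printed stretch, minus strand), and in DDX21 it began 31 bases before (chr10:68956604-68956633, plus strand). UTP20 and RRP9 had it 10 and 5 bases before the start site. In the other 8 it began after the start site, at base 4 in WDR43, base 7 in GNL3 and FBL (chr19:39846356-39846385, minus strand for FBL) and base 36 in NOP2. The 12 genes with an E-box came from every role except Pol I, and their median level was 30.1 RPKM, against 16.8 RPKM for the 17 members whose window had none. Of 7 other motifs searched on both strands, CCGGAAG, which ETS factors bind, was in 34.5% of the members' windows and in 21.2% of those of the 10939 genes. The GC box GGGCGG was in 72.4% of the members' windows and in 77.4% of the others, CCAAT in 44.8% and 42.7%, and TATAAA in 3.45% and 8.2%. The variant E-box CATGTG was in 6.9% and 9.69%, the NRF1 motif in 3.45% and 2.53%, and a further palindromic element in 3.45% and 0.923%. A match describes letters and does not show a bound site.

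**Figure D1:**
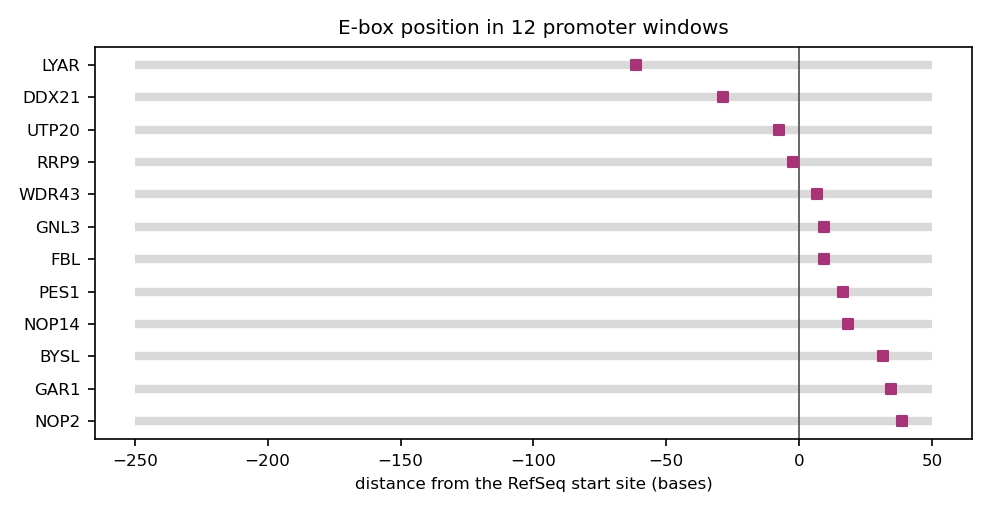
Position of the E-box (squares) in the 12 promoter windows that hold one, in bases from the RefSeq start site (vertical line); grey bars span the 300 bases searched. All 12 begin between 64 bases before and 36 bases after the start site.

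Several members are hosts of small nucleolar RNAs, the guides that the snoRNPs carry. In GENCODE release 29, 7 of the 35 (20%) contain a snoRNA gene on their own strand, against 1.74% of 13306 protein-coding genes at the same expression minimum. There are 24 such annotated snoRNA genes: 6 in GNL3, 5 in NOP56, 4 in NOP58, 3 each in NCL and WDR43, 2 in DKC1 and 1 in POLR1C. Of the 6 in GNL3, 2 overlap each other over most of their length, so the number of separate loci is smaller. NOP56 and NOP58, whose proteins build the box C/D particle, thus carry snoRNA genes of their own, and DKC1, the enzyme of the box H/ACA particle, carries SNORA36A and SNORA56. The library preparation selected polyadenylated RNA, and the 5 of these snoRNAs that the table lists had between 2 and 21 reads. The 7 hosts had a median level of 44.6 RPKM and the other 28 members one of 20.2 RPKM. The members lie on 16 chromosomes, with 7 of them on chromosome 2.

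All members were expressed above the median gene, though not all by a wide margin. The median member stood at 23.3 RPKM in replicate 2 and 28.3 RPKM in replicate 1, against 2.20 and 2.35 RPKM for all 19262 genes with a length. Every member exceeded the median of the 15774 genes with a length that averaged 10 or more normalized counts, which was 3.87 RPKM. The lowest members, POLR1C and UTP15, had means of 4.61 and 5.54 RPKM. With the longest transcript as the length, the mean of POLR1C was 10.5 RPKM, above UTP15 at 7.12 and WDR3 at 10.1 RPKM. At 10 RPKM or more stood 29 members in replicate 2 and 32 in replicate 1. Together the members took 0.842% of the reads of replicate 2 and 0.912% of those of replicate 1. NPM1 and NCL alone made up 51.2% of the members' reads in replicate 2 and 45.2% in replicate 1.

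**Figure D2:**
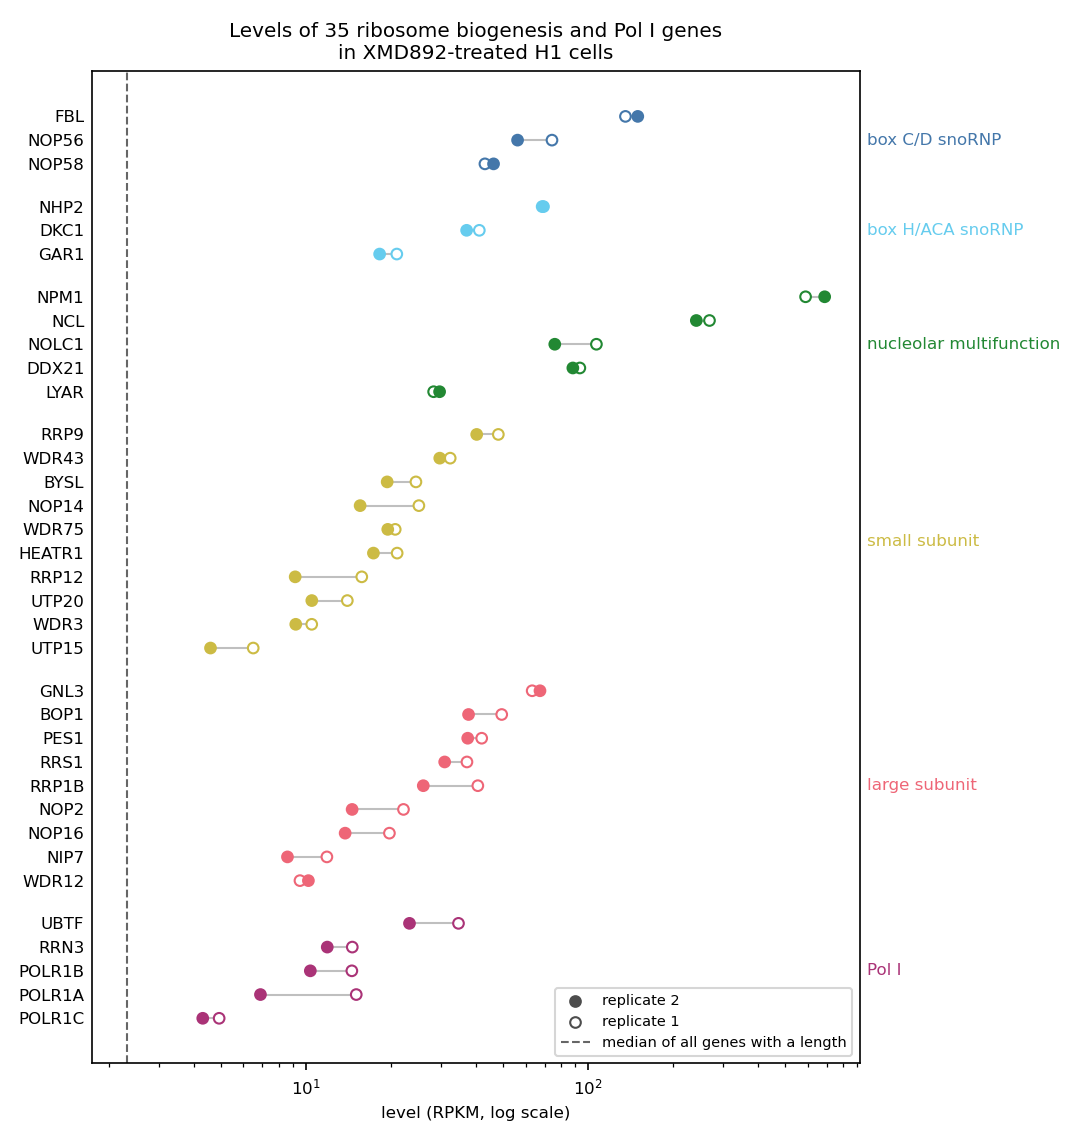
Level of each member in RPKM on a log scale, grouped by role, with replicate 2 filled and replicate 1 open; the dashed line is the median of all genes with a length. With merged exons as the length, NPM1, NCL and FBL lead, and POLR1C and UTP15 are lowest.

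The nucleolar proteins with several functions were the most abundant. NPM1 (nucleophosmin), a chaperone of ribosomal proteins, stood at 688 RPKM in replicate 2 and 589 RPKM in replicate 1. NCL (nucleolin), an RNA-binding protein of early precursor processing, stood at 242 RPKM in replicate 2 and 269 RPKM in replicate 1. NPM1 lies on chromosome 5 at 171387116 to 171411137 (plus strand, GRCh38) and NCL on chromosome 2 at 231453531 to 231483641 (minus strand). The RNA helicase DDX21 and the snoRNP chaperone NOLC1 came next, at 90.8 ± 3.66 and 91.5 ± 21.8 RPKM (SD, n = 2 each). Their order changed between the libraries, so neither was the higher in both. LYAR, a nucleolar zinc finger protein, was the lowest of this role, at 29.7 RPKM in replicate 2 and 28.3 RPKM in replicate 1. NPM1 has 45 pseudogenes named after it in GENCODE, of which 6 were listed; they held reads equal to 0.616% of those of NPM1 in replicate 2 and 0.696% in replicate 1.

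Within the snoRNP particles the order of the proteins was the same in both libraries and with either gene length tried. FBL (fibrillarin), which methylates ribose, stood at 150 RPKM in replicate 2 and 135 RPKM in replicate 1. NOP56 followed at 56.2 RPKM in replicate 2 and 74.4 RPKM in replicate 1, and NOP58 at 46.2 and 43.0 RPKM. These 2 proteins pair in the box C/D particle. In the box H/ACA particle, which makes pseudouridine, NHP2 led at 69.4 RPKM in replicate 2 and 68.7 RPKM in replicate 1. The enzyme DKC1 (dyskerin) stood at 37.1 RPKM in replicate 2 and 41.1 RPKM in replicate 1, and GAR1 at 18.2 and 21.0 RPKM. The mRNAs of proteins that share a particle thus differed by several fold in level per length. NOP10, a further small protein of the box H/ACA particle that is not a member, stood at 161 RPKM in replicate 2 and 127 RPKM in replicate 1.

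The small subunit factors ranged from 5.54 to 44.1 RPKM in the mean, with a median of 16.4 RPKM in replicate 2 and 20.9 RPKM in replicate 1. RRP9, a protein of the U3 snoRNP, was the highest at 40.2 RPKM in replicate 2 and 48.0 RPKM in replicate 1. UTP15, of the UTP-A complex that binds the precursor first, was the lowest at 4.59 RPKM in replicate 2 and 6.50 RPKM in replicate 1. Its partners in UTP-A were higher, WDR43 at 31.1 ± 1.87, WDR75 at 20.1 ± 0.864 and HEATR1 at 19.2 ± 2.62 RPKM. Among the large subunit factors GNL3 (nucleostemin), a GTP-binding protein named for its abundance in stem cells, led at 67.5 RPKM in replicate 2 and 63.3 RPKM in replicate 1. BOP1 and PES1, which act together with WDR12 in the PeBoW complex, stood close to each other at 43.5 ± 8.28 and 39.7 ± 3.20 RPKM. BOP1 was the higher in both libraries, at 37.7 against 37.4 RPKM in replicate 2 and 49.4 against 41.9 RPKM in replicate 1. The order turned in replicate 2 when the longest transcript served as the length. WDR12 stood lower at 9.85 ± 0.480 RPKM, and the lowest mean but for it was that of NIP7, at 10.2 ± 2.31 RPKM. Their order changed between the libraries: WDR12 and NIP7 stood at 10.2 and 8.59 RPKM in replicate 2, and at 9.52 and 11.9 RPKM in replicate 1. The merged exons by which their reads were divided are 9098 and 4749 nucleotides long.

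The Pol I genes were the lowest role, with a median of 10.4 RPKM in replicate 2 and 14.6 RPKM in replicate 1. UBTF, the factor that keeps ribosomal DNA open, was the highest at 23.3 RPKM in replicate 2 and 34.7 RPKM in replicate 1. RRN3, which links Pol I to its initiation complex, stood at 11.9 RPKM in replicate 2 and 14.6 RPKM in replicate 1. The largest subunit POLR1A stood at 6.89 and 15.1 RPKM, the second largest subunit POLR1B at 10.4 and 14.5 RPKM, and POLR1C, which Pol III also uses, at 4.30 and 4.92 RPKM, in replicate 2 and replicate 1 each time. The order of POLR1A and POLR1C turned in replicate 2 when the longest transcript served as the length. RRN3 has 2 pseudogenes named after it, RRN3P1 and RRN3P3, which held reads equal to 10.7% of those of RRN3 in replicate 2 and 23.3% in replicate 1, so its own count is uncertain.

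The gap between the libraries was then read for each member as replicate 2 minus replicate 1 on the scale of log2(normalized count + 1), where a normalized count is the count divided by the size factor of its library. With a single library on each side there is no test and no p-value. Of the 35 members 26 were higher in replicate 1 and 9 in replicate 2, and the median difference was -0.16, against 0.023 for the 16148 genes that averaged 10 or more normalized counts. Replicate 1 was the higher for 47.9% of those genes, and for 46.5% of the 7199 that averaged 500 or more. A gap of at least 1.5-fold (0.58 on the log2 scale) was reached by 3 members, all higher in replicate 1, and by 26.6% of the 16148 genes, 13.7% being higher in replicate 1 and 12.9% in replicate 2. Replicate 1 was the higher for 51.5% of the genes past that gap, and for 62.9% when the libraries were scaled by their total reads. The share past the gap was 33.6% of all genes without a minimum and 19.3% at a minimum of 50. All members had a mean normalized count above 500, where gaps are smaller: 12.3% of the 7199 genes at or above 500 reached 1.5-fold, 6.18% toward replicate 1 and 6.07% toward replicate 2. The 3 of 35 thus lie near the share among genes of like abundance. The mesenchymal markers TAGLN, COL1A1 and VIM were 10.8, 7.39 and 3.19 times as high in replicate 1 as in replicate 2. COL1A2 was also higher in replicate 1, the direction of most members. THY1, S100A4 and, on few reads, ACTA2 were higher in replicate 2. The mitochondrial sum was higher in replicate 2, with 7 of its genes higher there and 6 in replicate 1. The part of these markers and of mitochondrial RNA in the gap was not tested. The median size of the gap was 0.20 for the members and 0.24 for those 7199 genes.

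POLR1A had the widest gap, with 1988 normalized counts in replicate 2 and 4050 in replicate 1. Replicate 2 was lower by 1.03 on the log2 scale (a difference of -1.03, exact 95% counting interval -1.11 to -0.95). RRP12, a HEAT-repeat factor in the export and maturation of the small subunit, had 1665 normalized counts in replicate 2 and 2673 in replicate 1, a difference of -0.68 (-0.77 to -0.59). NOP14, a component of the small subunit processome, had 1173 normalized counts in replicate 2 and 1767 in replicate 1, a difference of -0.59 (-0.70 to -0.48). NOP14 lay just past the 1.5-fold limit and RRP1B just short of it. RRP1B had 3200 normalized counts in replicate 2 and 4656 in replicate 1, a difference of -0.54. NOP14 shares 605 exon bases with NOP14-AS1 on the other strand, which had 367 normalized counts in replicate 2 and 388 in replicate 1. Reads from the 2 strands cannot be told apart where the strand setting is not known, and 13 members share exon bases with a gene on the other strand.

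**Figure D3:**
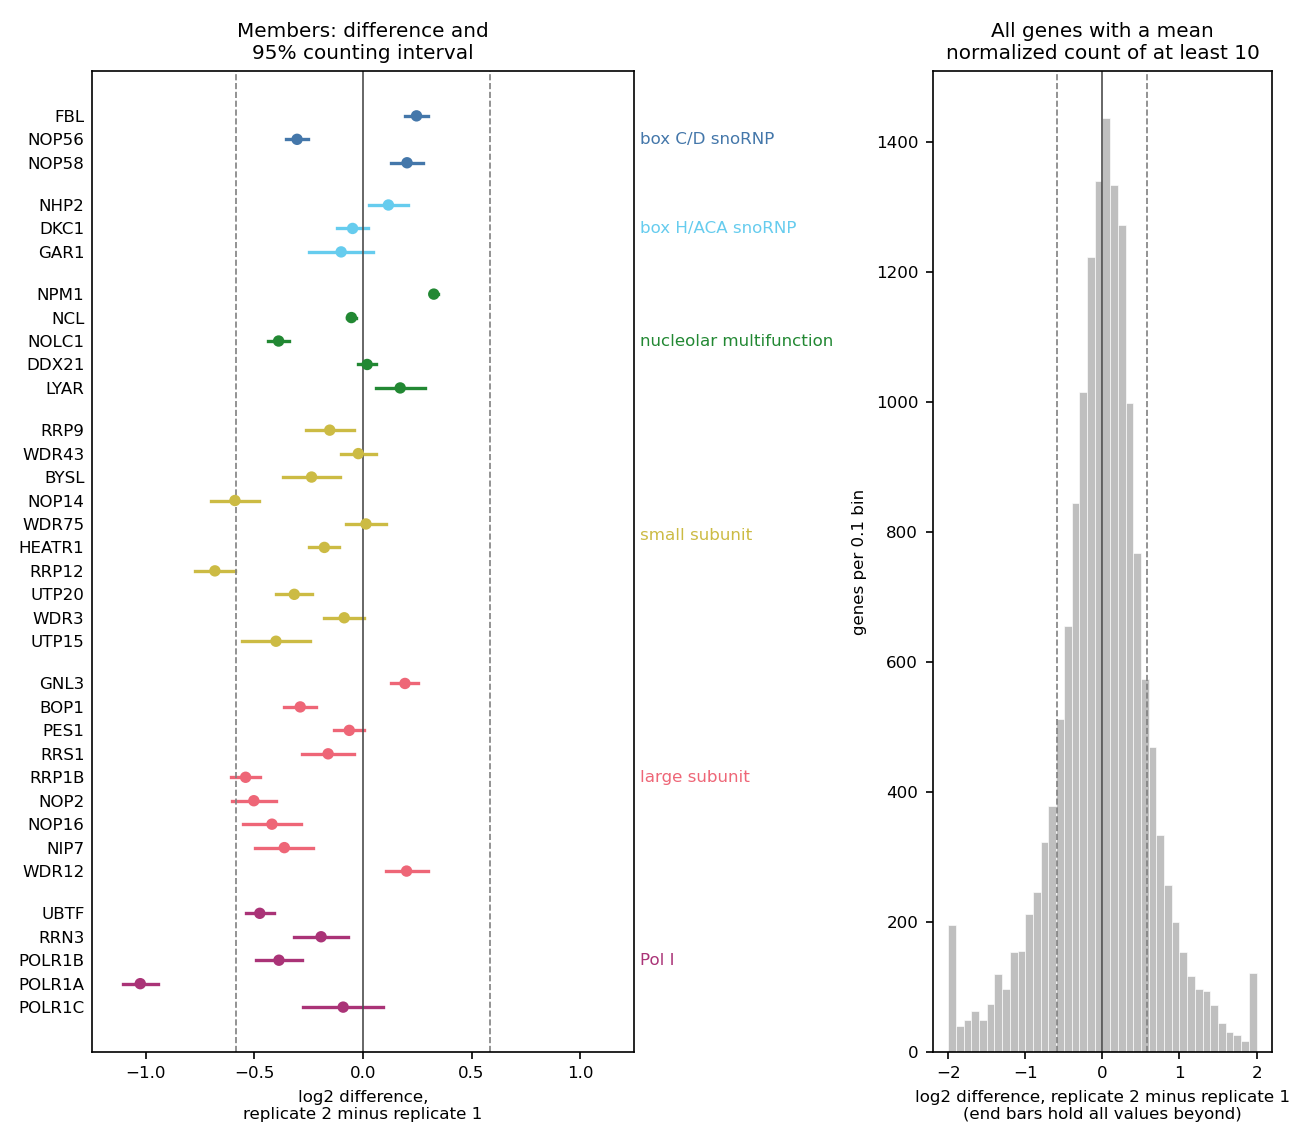
Left, log2 difference of each member (replicate 2 minus replicate 1, points) with its 95% counting interval (lines), grouped by role; dashed lines mark 1.5-fold. Right, the same difference for the 16148 genes that averaged 10 or more normalized counts, as genes per bin. POLR1A, RRP12 and NOP14 lie beyond the left dashed line, and no member lies beyond the right one.

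All 5 Pol I genes were higher in replicate 1, with a median of -0.39. UBTF had 3470 normalized counts in replicate 2 and 4825 in replicate 1, a difference of -0.48, and POLR1B had 1398 and 1829, a difference of -0.39. RRN3 differed by -0.19, and the counting interval of POLR1C, at -0.092, held equal levels. The small subunit factors had a median of -0.21 with 9 of 10 higher in replicate 1. In UTP-A the difference was -0.40 for UTP15 and -0.18 for HEATR1, but -0.022 for WDR43 and 0.013 for WDR75, whose intervals held equal levels. The direction of WDR75 turned when the libraries were scaled by total reads. UTP20, a large scaffold of the processome, differed by -0.32 and BYSL, which acts late on the small subunit, by -0.24. WDR3, a protein of the UTP-B complex, stood at 9.19 RPKM in replicate 2 and 10.5 RPKM in replicate 1, and its interval, at a difference of -0.087, held equal levels.

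The large subunit factors had a median of -0.29, with 7 of 9 higher in replicate 1. NOP2, an rRNA methyltransferase, had 1456 normalized counts in replicate 2 and 2064 in replicate 1, a difference of -0.50, and NOP16 differed by -0.42. Of the 4687 merged exon bases of NOP2, 2550 are shared with AC006064.6, an unlisted protein-coding gene on the same strand. How reads there were assigned is not known. RRS1, which helps bring 5S RNA into the large subunit, stood at 30.99 RPKM in replicate 2 and 37.2 RPKM in replicate 1 and differed by -0.16, the median of the members. The PeBoW complex was split: BOP1 differed by -0.29 and PES1 by -0.063, while WDR12 was higher in replicate 2 with a difference of 0.20. GNL3 was also higher in replicate 2, with 4775 normalized counts there and 4177 in replicate 1, a difference of 0.19.

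The abundant nucleolar proteins and the snoRNP proteins showed no common direction. NPM1 had 56226 normalized counts in replicate 2 and 44860 in replicate 1, a difference of 0.33 and the largest toward replicate 2 among the members. With quantile normalization its difference was 0, since NPM1 held the same rank in both libraries. NCL had 35715 normalized counts in replicate 2 and 37070 in replicate 1, a difference of -0.054. NOLC1 differed by -0.39, LYAR by 0.17 and DDX21 by 0.019, the last turning direction with total reads or quantile normalization. In the box C/D particle FBL and NOP58 were higher in replicate 2, with differences of 0.25 and 0.20, and NOP56 was higher in replicate 1, with a difference of -0.30. The box H/ACA proteins lay between -0.10 for GAR1 and 0.12 for NHP2. The counting interval excluded equal levels for 27 of the 35 members, 20 of them higher in replicate 1 and 7 in replicate 2, and for 58.1% of the 16148 genes and 74.1% of the 7199 abundant ones. Each member had at least 483 reads in each library, and the widest interval extended 0.18 to either side.

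Exon length moved with the gap. Across the 35 members Spearman's rho of the difference with merged exon length was -0.34 and with the GC content of the longest transcript -0.40; across 13306 protein-coding genes it was -0.21 and -0.12. These are correlations across genes that share 2 libraries, and genes are not independent replicates. POLR1A, with the widest gap, also has the longest merged exons of the members, 13519 nucleotides. The 17 members above the members' median length of 4557 nucleotides had a median difference of -0.32, and 7737 protein-coding genes above that length one of -0.025. The 18 shorter members had a median of -0.082 and 5569 shorter protein-coding genes one of 0.13. Set against the median of protein-coding genes in their own length decile, 28 of 35 members lay lower, with a median distance of -0.28. The part of length or GC content in the gap was not tested.

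**Figure D4:**
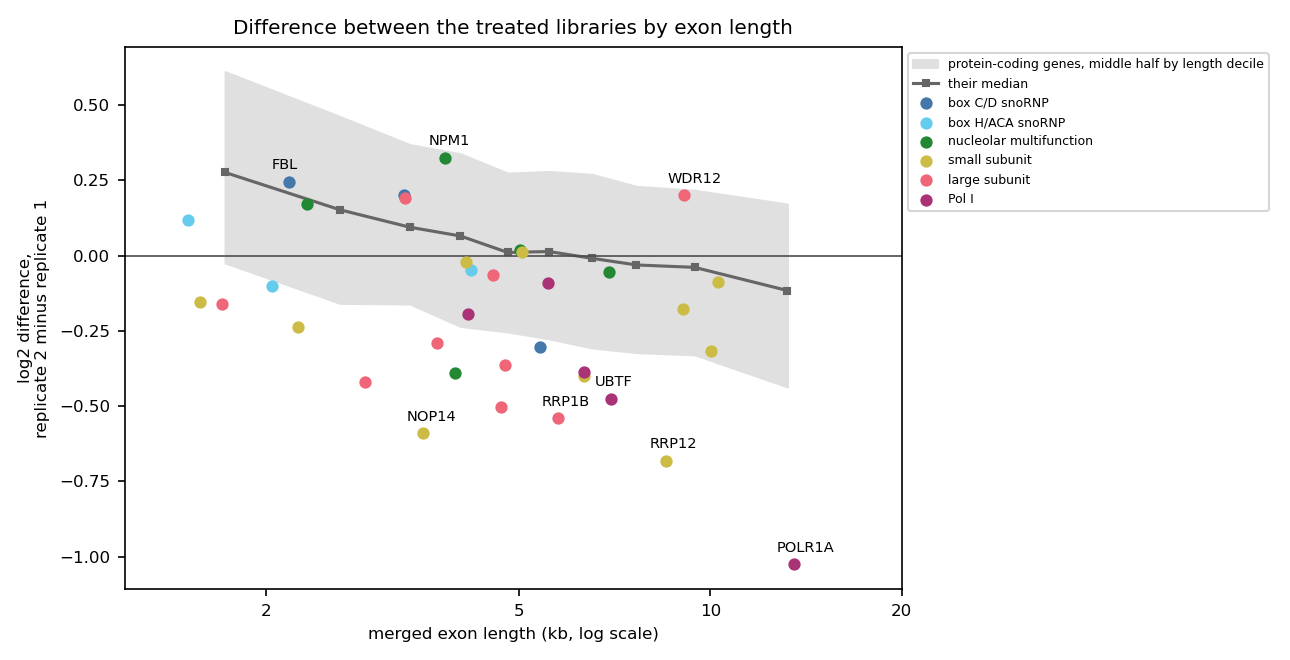
Log2 difference (replicate 2 minus replicate 1) against merged exon length on a log scale, with members coloured by role; the line and band give the median and the middle 50% of protein-coding genes by length decile. Of the 35 members 28 lie below the median of their own decile.

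A wider set of 118 further genes of Pol I, the snoRNPs and both subunits had a median level of 14.8 RPKM. Of the 117 that averaged 10 or more normalized counts, 69 were higher in replicate 1, the median difference was -0.10, and 7 passed 1.5-fold toward replicate 1 and 1 toward replicate 2. That share of 6.84% compares with 26.6% of all genes at that minimum. Of these genes 105 averaged 500 or more normalized counts, and 6.67% of them passed 1.5-fold, all toward replicate 1, against 12.3% of all genes at that abundance. The other 43 small subunit genes had a median of -0.13, led by NOL6 (1853 normalized counts in replicate 2 and 3284 in replicate 1, a difference of -0.83) and DHX37, a helicase that releases U3, at -0.77. UTP14A was the next at -0.45, and UTP18 of UTP-B had the highest level, 34.6 ± 1.86 RPKM. The other 51 large subunit genes had a median of -0.13. NOL9, a polynucleotide kinase of precursor processing, differed by -1.04 (651 normalized counts in replicate 2 and 1343 in replicate 1), URB1 by -0.83 and DDX56 by -0.72. EIF6, which keeps the subunits apart, had the highest level of that list, 66.9 ± 0.904 RPKM.

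The other 11 Pol I genes had a median of 0.17, with 6 higher in replicate 2. ZNRD1, a small Pol I subunit, had 298 normalized counts in replicate 2 and 184 in replicate 1, a difference of 0.69. TAF1C, of the promoter selectivity factor, differed by -0.66, and TCOF1 (treacle), which recruits Pol I and had the highest level of the list at 25.7 ± 7.65 RPKM, by -0.51. None of 12 other snoRNP genes passed 1.5-fold and their median was 0.017. PIH1D1 of the assembly machinery differed by 0.54, FBLL1 by -0.47 on 41 reads in replicate 2 and 56 in replicate 1, and NOP10 by 0.44. Of 21 Pol III genes 1 passed 1.5-fold in each direction, against 26.6% of all genes that averaged 10 or more normalized counts. The median of the Pol III genes was -0.068. GTF3C1, of the factor TFIIIC, differed by -0.63 and POLR3G by 0.45. POLR3G, a Pol III subunit enriched in pluripotent cells, had the highest level, 67.1 ± 11.5 RPKM.

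**Figure D5:**
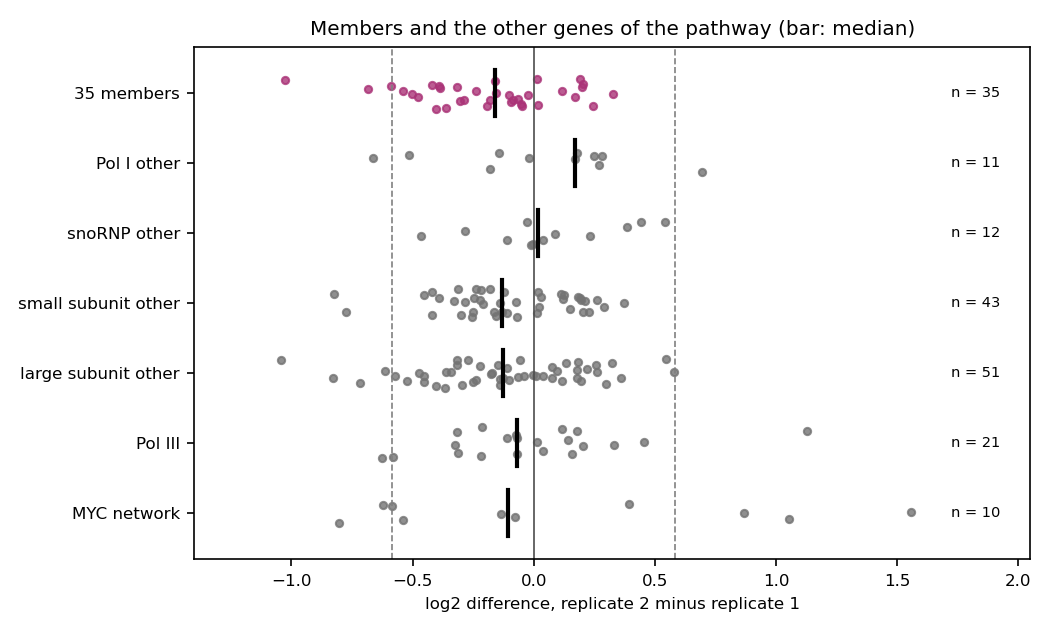
Log2 difference (replicate 2 minus replicate 1) of each gene that averaged 10 or more normalized counts, for the 35 members and 6 further lists; black bars are medians, and dashed lines mark 1.5-fold. The medians run from -0.16 for the members to 0.17 for the other Pol I genes.

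MYC and its relatives were read beside the members. MYC had 1840 normalized counts in replicate 2 and 2672 in replicate 1, a difference of -0.54, and stood at 36.8 ± 11.3 RPKM. MYCN had 1726 normalized counts in replicate 2 and 2592 in replicate 1, a difference of -0.59, and the highest level of the list at 40.6 ± 13.4 RPKM. MXI1, an antagonist that competes for the partner MAX, was higher in replicate 2, with 608 normalized counts there and 206 in replicate 1, a difference of 1.56. MYCL differed by 1.05 and MXD3 by 0.87. MNT was higher in replicate 1, with 279 normalized counts in replicate 2 and 487 in replicate 1, a difference of -0.80. MXD1 also was, by -0.62 on 46 reads in replicate 2 and 70 in replicate 1. Of the 10 genes of this list 6 passed 1.5-fold, 3 in each direction. MXI1, MYCL and MXD3 passed it toward replicate 2, and MYCN, MNT and MXD1 toward replicate 1. Of the 16148 genes that averaged 10 or more normalized counts, 26.6% passed 1.5-fold, and of those averaging 500 or more 12.3%. MXI1, MXD3, MNT and MXD1 averaged fewer than 500, where gaps are wider. The 12 members with an E-box had a median difference of -0.082, and the 17 members with a window and no E-box one of -0.18. Since the values come from 2 libraries of the same treatment, the part of MYC genes in the members' gap was not tested.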

How the data were processed

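Polyadenylated RNA of H1 cells was sequenced, and 1 table of the series was used. The deposited signal is gene counts over a size factor per library, an origin read from the values themselves, since 100% of the 19775 values in each column were whole multiples of a single step (within 0.01 reads). Whole reads were recovered from that step, with size factors of 0.948 (replicate 2) and 0.932 (replicate 1). The build hg38 and the tools STAR, Trimmomatic 0.36, DESeq2 1.26.0 and featureCounts 1.5.3 come from the submitters' processing notes, which give them no role. For the annotation and the strand setting the sources used here hold no statement. Columns were matched to samples by name; 7 columns were not used, and the planned test against E8 was not run. RPKM used merged exon lengths of GENCODE release 29 (GRCh38) and recovered reads. Counting intervals are exact (Clopper-Pearson, 95%) and cover counting error only. Differences used a pseudocount of 1, which understates low genes; this code was tested on simulated data. TMM factors came from edgeR 4.0.16 in R 4.3.3. Promoter windows are from RefSeq. Members and lists were chosen with earlier results of these data known. Every member is named; from each further list of the pathway, the 3 widest gaps among genes averaging 50 or more normalized counts and the highest level are named, except 1 gene that is not reported here.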

Additional observations from a re-analysis of the deposited data

How the results depend on the processing

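Of the 35 members, the number past 1.5-fold was 3 toward replicate 1 and 0 toward replicate 2 with the authors' size factors, and the same with TMM, a pseudocount of 5 or quantile normalization (the last chosen for the counts after seeing the data). With total reads as the scale it was 5 toward replicate 1, NOP2 at -0.60 and RRP1B at -0.64 being added, and over all genes the median was -0.077, in place of 0.023; that of the members was -0.26, and ranged from -0.26 to -0.16 over all scales. With 2-fold as the limit 1 member, POLR1A, remained. The direction reversed for WDR75 (-0.088) and DDX21 (-0.082) with total reads, and for DDX21 (-0.046) with quantile normalization. The median level of the members was 28.97 RPKM over library means and 36.4 RPKM with the longest transcript as the length; without replicate 1 or replicate 2 it ran from 23.3 to 28.3 RPKM. Over all genes the share past 1.5-fold was 26.6%, and 33.6% without an expression minimum, 19.3% at a minimum of 50 and 12.3% at 500. No paired analysis was possible because only the treated group had matched columns; for that reason the planned test of XMD892 against E8 and its alternatives were not run. Depth did not limit the members, which had at least 483 reads in each library.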
